A study of Mus musculus with 18 samples.

Results

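The 9 genes Tcf7, Lef1, Bach2, Satb1, Klf2, S1pr1, Dapl1, Foxo1 and Foxp1 encode factors that keep T cells in their resting state and proteins that let them circulate through lymphoid tissue. They were taken by symbol from a table of 46073 genes, each matched 1 row, and all 9 were among the 18447 genes with enough counts to be tested. RNA was measured in donor T cells from the spleens of irradiated mice, 7 days after a transplant of T cell depleted marrow and T cells, in 4 groups of 3 libraries that each pooled 2 to 4 mice. The T cells came from C57BL/6 donors and were either KO for Wapl, whose product removes the cohesin ring from chromosomes, or WT. Donors and recipients were female and 8 to 12 weeks old by the general protocol, which does not describe the KO donors apart.

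The allogeneic KO and allogeneic WT groups received Wapl KO or WT T cells in CByJ.SJL(B6)-Ptprca/J recipients (BALB/c in the sample labels), given 8 Gy and 1000000 donor T cells. The syngeneic KO and syngeneic WT groups received them in B6.SJL-Ptprca Pepcb/BoyJ recipients, given 9.5 Gy and, as the labels read, 8500000 donor T cells. All received 5000000 marrow cells. The cell type field of the syngeneic KO samples names the allogeneic recipient strain, and these samples were grouped by their transplant type; the comparison of the WT libraries does not use them. Strain, radiation dose and T cell number differ along with the transplant type, so their parts in any allogeneic against syngeneic difference cannot be told apart. The Cre line and the deleted exons of Wapl are not given in the sources used here. The sort took live cells with CD3 and the donor marker CD45.2 on their surface. In such bulk samples fewer cells of a type and less RNA per cell cannot be told apart.

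Naive T cells circulate between blood and lymphoid organs and divide rarely. Tcf7 (which encodes TCF-1) and Lef1 are related HMG box factors of the Wnt pathway that open and maintain T cell gene programs. Foxo1 stays in the nucleus while the kinase AKT is inactive, and in mouse T cells it is known to promote transcription of Klf2, of the homing gene Ccr7 and of the survival receptor gene Il7r. Klf2 in turn promotes S1pr1, whose product senses sphingosine 1-phosphate and lets cells leave lymphoid organs. Bach2 represses effector genes at elements shared with AP-1 factors, Foxp1 holds naive T cells in quiescence, and Satb1 organises chromatin in developing T cells. Many of these transcripts are known to be lower in effector T cells than in naive ones.

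Library totals ran from 45965659 to 89007100 counts. Levels are given as counts per 1000000 (CPM) on library sizes scaled by trimmed means (TMM). Wapl, listed as Wapal, was checked first, and stood at 145, 124 and 151 CPM in the allogeneic KO libraries, 169, 156 and 158 in allogeneic WT, 127, 139 and 137 in syngeneic KO and 170.1, 211 and 183 in syngeneic WT. It was −0.48 ± 0.11 (log2 fold change ± SE) in syngeneic KO against syngeneic WT (edgeR adjusted p = 0.0368) and −0.20 ± 0.11 in allogeneic KO against allogeneic WT (adjusted p = 0.963). The syngeneic call was lost without any 1 of the 3 syngeneic KO libraries, of syngeneic WT replicates 2 and 3 or of the 3 allogeneic WT libraries (adjusted p from 0.0510 to 0.198). The counts cover the whole gene, and how complete the deletion was cannot be read from them. The share of ribosomal RNA counts ran from 8.27% to 18.0% in the allogeneic libraries and from 20.2% to 32.1% in the syngeneic libraries, without overlap. It differs along with the transplant type, so its part in differences between settings cannot be told apart. Syngeneic KO replicate 1 held the largest share, 32.1%, and stood apart on the second principal component of log2 CPM.

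The labelled T cells carried their markers, since the 12 T cell markers summed to 5159 to 7438 CPM in allogeneic KO, 5520 to 5978 in allogeneic WT, 4547 to 7260 in syngeneic KO and 3983 to 5473 in syngeneic WT. Cd4 ran from 209 to 385 CPM in allogeneic KO, 359 to 458 in allogeneic WT, 176 to 285 in syngeneic KO and 156 to 225 in syngeneic WT. Cd8a ran from 372 to 506 CPM in allogeneic KO, 319 to 371 in allogeneic WT, 523 to 801 in syngeneic KO and 466 to 651 in syngeneic WT. Of the 12 T cell markers 1 fell in allogeneic KO against syngeneic KO (edgeR adjusted p under 0.05). In allogeneic WT against syngeneic WT 4 rose and 1 fell. Markers of other cells also differed between groups, to unlike degrees. In allogeneic KO against syngeneic KO 13.2% of all genes were called higher and 11.2% lower, and the B cell counts given below lie near these shares. In allogeneic WT against syngeneic WT the shares were 16.4% and 15.9%. In syngeneic KO against syngeneic WT 3.37% of all genes were called in either direction. The 9 erythroid markers summed to 50.1 to 63.9 CPM in allogeneic KO, 38.2 to 85.8 in allogeneic WT, 70.0 to 164 in syngeneic KO and 2239 to 5151 in syngeneic WT, and 2 of 9 fell in allogeneic KO against syngeneic KO, 9 of 9 in allogeneic WT against syngeneic WT and 8 of 9 in syngeneic KO against syngeneic WT. The 8 NK markers summed to 1027 to 2274 CPM in allogeneic KO, 956 to 1395 in allogeneic WT, 35.8 to 54.5 in syngeneic KO and 34.4 to 64.1 in syngeneic WT. Most of this was Gzma, which cytotoxic T cells also express, at means of 1412 CPM in allogeneic KO, 1136 in allogeneic WT, 27.4 in syngeneic KO and 20.7 in syngeneic WT, and Klra8 was at 0 in allogeneic WT. The receptor gene Klrb1c averaged 35.1 CPM in allogeneic KO, 28.4 in allogeneic WT, 6.47 in syngeneic KO and 6.09 in syngeneic WT, and Ncr1 averaged 3.57 CPM in allogeneic KO, 1.62 in allogeneic WT, 0.176 in syngeneic KO and 0.594 in syngeneic WT. Fcer1g, which myeloid cells also express, averaged 22.9 CPM in allogeneic KO, 15.4 in allogeneic WT, 1.95 in syngeneic KO and 6.69 in syngeneic WT. Of these 8 markers 4 rose and 2 fell in allogeneic KO against syngeneic KO, and 3 rose and 2 fell in allogeneic WT against syngeneic WT. The 13 myeloid markers summed to 235 to 385 CPM in allogeneic KO, 355 to 590 in allogeneic WT, 35.2 to 387 in syngeneic KO and 261 to 809 in syngeneic WT, of which 3 rose in allogeneic KO against syngeneic KO, 1 rose and 4 fell in allogeneic WT against syngeneic WT and 5 fell in syngeneic KO against syngeneic WT. The 13 B cell markers summed to 474 to 3245 CPM in allogeneic KO, 1248 to 1864 in allogeneic WT, 545 to 2812 in syngeneic KO and 580 to 1129 in syngeneic WT, of which 1 rose and 2 fell in allogeneic KO against syngeneic KO, 5 fell in allogeneic WT against syngeneic WT and 1 fell in syngeneic KO against syngeneic WT. The 7 endothelial markers summed to 90.9 to 116 CPM in all libraries, nearly all from Pecam1, and Emcn was at 0 in all 4 groups. Of the 3 endothelial markers tested 1 fell in allogeneic WT against syngeneic WT. The part of these markers in the results on the 9 genes and on the other genes named below was not tested.

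After allogeneic transplantation 7 of the 9 genes were lower than after syngeneic transplantation, in KO and in WT T cells, and Klf2 and S1pr1 were not called. In allogeneic KO against syngeneic KO 0 members rose and 7 fell (edgeR adjusted p under 0.05 over all tested genes), where 13.2% of all genes were called higher and 11.2% lower. In allogeneic WT against syngeneic WT 0 rose and 7 fell, where 16.4% of all genes were called higher and 15.9% lower. The median log2 fold change of the 9 members was −1.08 in KO, beside −0.02 over all tested genes, and −1.09 in WT, beside −0.03 over all tested genes. The 7 genes did not overlap between the groups in either comparison, where 16.6% of all genes in KO and 27.5% in WT were lower without overlap. The 9 genes were chosen with earlier results of these data known. The shares of all genes beside them are therefore a description and no test of the set. In KO 54.2% of the called genes were higher, and this share was 43.8% with upper quartile scaling, which moved the median of all genes by −0.11 in both comparisons. Markers of T cells and of other cell types were called in the same comparisons, in the counts given above.

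**Figure D1:**
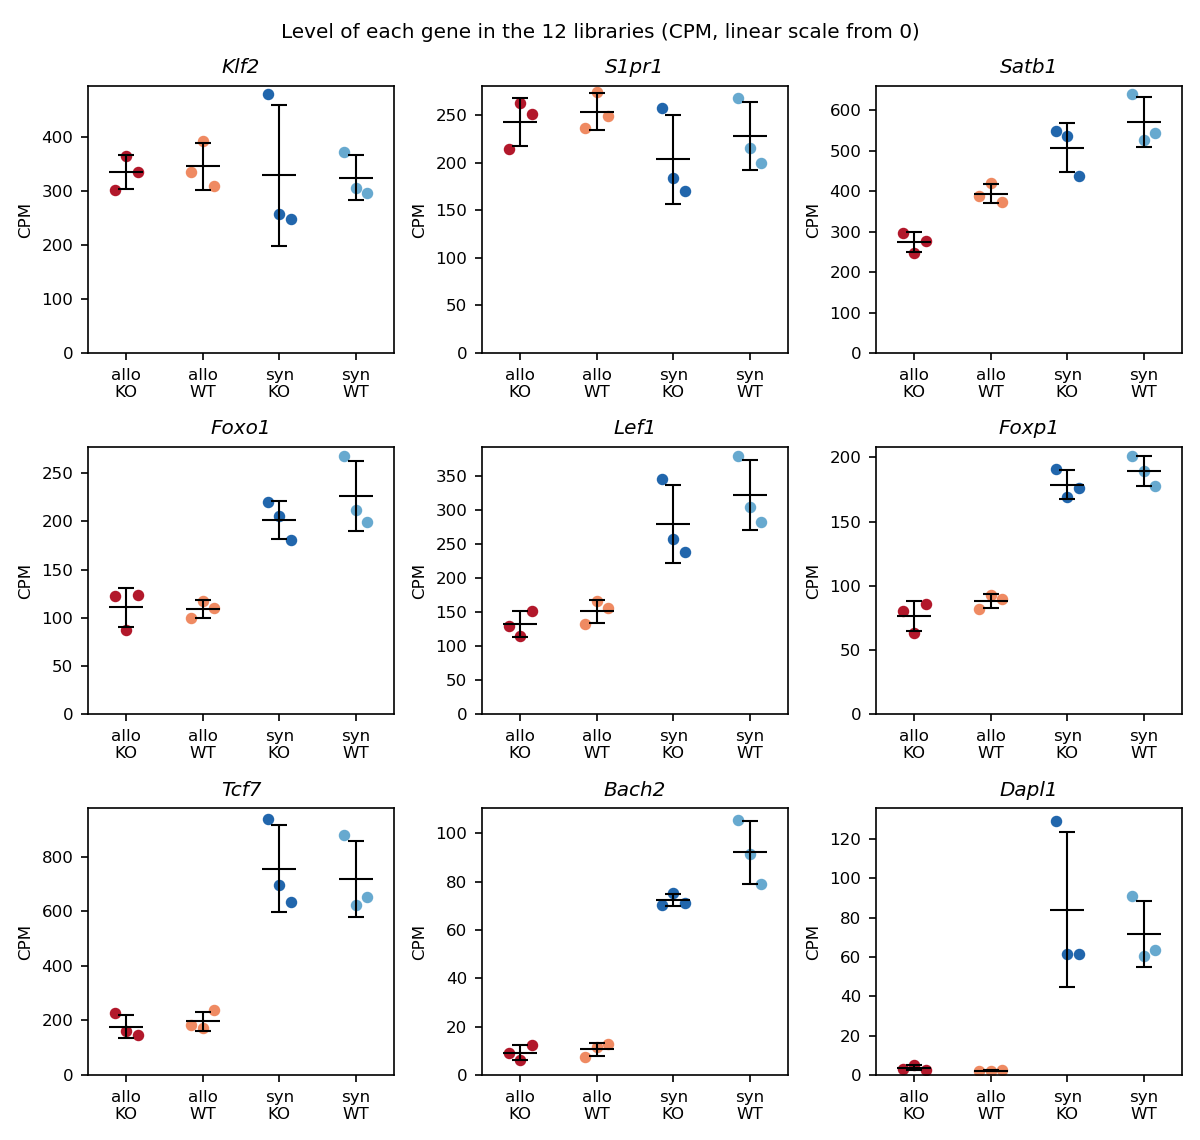
Level of each of the 9 genes in CPM (vertical axes, linear from 0) in the 3 libraries of each group. Points are libraries, long bars are group means and whiskers are 1 SD. Klf2 and S1pr1 overlap between all groups, while the other 7 genes stand lower in both allogeneic groups than in both syngeneic groups.

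Tcf7 (chromosome 11, 52252371 to 52283014, minus strand, GRCm38) stood at 227, 160.3 and 145 CPM in the allogeneic KO libraries, 182, 171 and 236 in allogeneic WT, 938, 695 and 635 in syngeneic KO and 878, 622 and 653 in syngeneic WT. All 6 allogeneic libraries lay below all 6 syngeneic libraries, and the KO and WT libraries overlapped in both settings. The log2 fold change was −2.09 ± 0.22 (SE, n = 3 per group) in KO, a level 4.26-fold lower in allogeneic KO (edgeR adjusted p = 2.18e-05), and −1.87 ± 0.22 in WT (3.65-fold lower in allogeneic WT, adjusted p = 3.79e-05). Lef1 (chromosome 3, 131110471 to 131224356, plus strand) stood at 129.6, 116 and 152 CPM in the allogeneic KO libraries, 133, 166 and 155 in allogeneic WT, 346, 258 and 238 in syngeneic KO and 380.0, 305 and 283 in syngeneic WT. Its allogeneic libraries were again all below its syngeneic libraries, with a smaller gap than for Tcf7. Lef1 changed by −1.08 ± 0.17 in KO (edgeR adjusted p = 0.000541) and by −1.09 ± 0.17 in WT (adjusted p = 0.000374).

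Bach2 (chromosome 4, 32238804 to 32586108, plus strand) stood at 9.08, 6.07 and 12.4 CPM in the allogeneic KO libraries, 7.53, 11.6 and 12.8 in allogeneic WT, 70.5, 75.4 and 71.3 in syngeneic KO and 106, 91.6 and 79.2 in syngeneic WT. The allogeneic libraries lay far below the syngeneic ones, at 12.7% of the syngeneic KO mean in allogeneic KO and 11.5% of the syngeneic WT mean in allogeneic WT. The log2 fold changes were −2.98 ± 0.25 in KO (edgeR adjusted p = 4.12e-06) and −3.12 ± 0.25 in WT (adjusted p = 1.97e-06). Satb1 (chromosome 17, 51736187 to 51833290, minus strand) stood at 298, 248 and 277 CPM in the allogeneic KO libraries, 388, 421 and 373 in allogeneic WT, 549, 536 and 438 in syngeneic KO and 640.5, 528 and 545 in syngeneic WT. Here the 4 groups were ordered, allogeneic KO lowest, allogeneic WT next and the overlapping syngeneic groups highest. Satb1 fell by 0.89 ± 0.13 on the log2 scale in KO (edgeR adjusted p = 0.000347) and by 0.53 ± 0.13 in WT (adjusted p = 0.00803), the smallest fall of the 7 in WT.

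Foxo1 (chromosome 3, 52268336 to 52353221, plus strand) stood at 122, 87.3 and 123 CPM in the allogeneic KO libraries, 99.6, 118 and 109.7 in allogeneic WT, 219.7, 205 and 180.3 in syngeneic KO and 268, 212 and 199 in syngeneic WT. Allogeneic KO and allogeneic WT overlapped, and both lay below the syngeneic groups. The log2 fold changes were −0.86 ± 0.16 in KO (edgeR adjusted p = 0.00148) and −1.05 ± 0.16 in WT (adjusted p = 0.000264). Foxp1 (chromosome 6, 98925338 to 99522721, minus strand) stood at 80.3, 63.5 and 85.7 CPM in the allogeneic KO libraries, 82.0, 92.5 and 89.6 in allogeneic WT, 191, 169 and 176 in syngeneic KO and 201, 189 and 178 in syngeneic WT. Its allogeneic libraries were all below its syngeneic ones, with the widest spread, relative to the mean, in allogeneic KO. Foxp1 changed by −1.22 ± 0.12 in KO (edgeR adjusted p = 1.36e-05) and by −1.11 ± 0.12 in WT (adjusted p = 2.23e-05).

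Dapl1 (chromosome 2, 59484653 to 59505020, plus strand), a gene for a small death-associated protein-like product whose transcript is used as a marker of naive T cells, stood at 3.26, 5.02 and 2.66 CPM in the allogeneic KO libraries, 1.93, 1.95 and 2.40 in allogeneic WT, 129, 61.3 and 61.5 in syngeneic KO and 91.0, 60.6 and 63.5 in syngeneic WT. It was low in every allogeneic library and high in every syngeneic library, with syngeneic KO replicate 1 highest. Its log2 fold changes were the largest of the 9, at −4.53 ± 0.35 in KO (23.0-fold lower in allogeneic KO, edgeR adjusted p = 2.93e-06) and −5.10 ± 0.36 in WT (34.3-fold lower in allogeneic WT, adjusted p = 1.04e-06).

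Klf2 (chromosome 8, 72319033 to 72321656, plus strand) stood at 302, 365 and 336 CPM in the allogeneic KO libraries, 335, 392 and 309 in allogeneic WT, 479.9, 258 and 248 in syngeneic KO and 372, 306 and 296 in syngeneic WT. The groups overlapped, and syngeneic KO replicate 1 stood above all other libraries. The log2 fold change was 0.02 ± 0.22 in KO (95% interval −0.45 to 0.50, edgeR adjusted p = 0.949) and 0.09 ± 0.22 in WT (95% interval −0.39 to 0.57, adjusted p = 0.783), and with upper quartile scaling both were below 0, at −0.064 in KO and −0.015 in WT. S1pr1 (chromosome 3, 115710433 to 115715072, minus strand) stood at 214, 263 and 252 CPM in the allogeneic KO libraries, 237, 275 and 249 in allogeneic WT, 257, 184 and 170.3 in syngeneic KO and 269, 216 and 200.0 in syngeneic WT. All groups overlapped, with the same library highest in syngeneic KO. S1pr1 was at 0.25 ± 0.17 in KO (95% interval −0.11 to 0.61, edgeR adjusted p = 0.289) and 0.15 ± 0.17 in WT (95% interval −0.21 to 0.51, adjusted p = 0.506). Without syngeneic KO replicate 1, Klf2 (0.44, adjusted p = 0.0435) and S1pr1 (0.50, adjusted p = 0.0272) were called higher in allogeneic KO than in syngeneic KO, and all 9 members were then called. The intervals do not show that either gene was equal between settings.

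**Figure D2:**
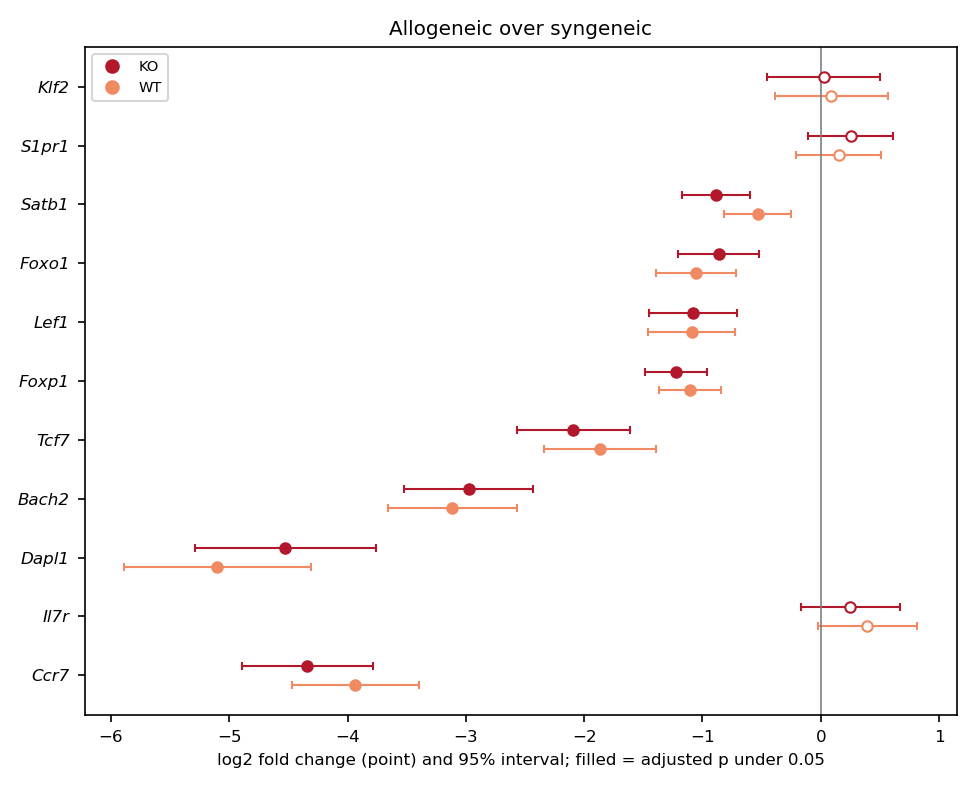
Log2 fold change of allogeneic over syngeneic libraries (horizontal axis, points) with 95% intervals (bars) for the 9 genes and for Il7r and Ccr7, in KO above WT for each gene. Filled points had an edgeR adjusted p under 0.05, from Satb1 at −0.53 in WT to Dapl1 at −5.10 in WT, and the points of Klf2, S1pr1 and Il7r are open and above 0.

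Of 2 other known targets of Foxo1, Ccr7 fell and Il7r was not called. Ccr7, which encodes the chemokine receptor that guides cells to T cell zones, stood at 9.15, 7.66 and 6.96 CPM in the allogeneic KO libraries, 10.2, 12.7 and 13.7 in allogeneic WT, 218, 144 and 118 in syngeneic KO and 235, 164 and 160.4 in syngeneic WT. Its allogeneic libraries lay well below its syngeneic ones, at −4.34 ± 0.25 in KO (edgeR adjusted p = 2.42e-07) and −3.94 ± 0.25 in WT (adjusted p = 3.14e-07). Il7r stood at 108, 143 and 189 CPM in the allogeneic KO libraries, 221, 259.8 and 167 in allogeneic WT, 132, 126 and 110.1 in syngeneic KO and 162, 179 and 153 in syngeneic WT. Its groups overlapped between settings, at 0.25 ± 0.20 in KO (edgeR adjusted p = 0.372) and 0.39 ± 0.19 in WT (adjusted p = 0.139).

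Promoter sequence is shown for the 3 members with the largest falls, Dapl1, Bach2 and Tcf7, and for Klf2, which was not called. RefSeq (GRCm38.p6) gave 18 promoter windows for 8 of the 9 members, each of 300 bases, 250 before and 50 after a start. Capitals mark matches on either strand to CACCC (bound by KLF factors) or TGTTTAC (bound by FOXO factors). S1pr1 is named only.

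The windows, written 5′ to 3′ on the strand of the gene, are Dapl1 at chr2:59484403-59484702 (plus), Bach2 at chr4:32417185-32417484 (plus), Tcf7 at chr11:52282546-52282845 (minus, the second of 2 starts) and Klf2 at chr8:72318812-72319111 (plus).
Dapl1: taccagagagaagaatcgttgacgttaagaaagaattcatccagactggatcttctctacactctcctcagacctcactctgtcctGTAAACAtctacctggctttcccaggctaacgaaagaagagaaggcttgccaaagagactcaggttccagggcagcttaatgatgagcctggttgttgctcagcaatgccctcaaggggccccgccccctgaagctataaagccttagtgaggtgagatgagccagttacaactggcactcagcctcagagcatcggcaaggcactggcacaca
Bach2: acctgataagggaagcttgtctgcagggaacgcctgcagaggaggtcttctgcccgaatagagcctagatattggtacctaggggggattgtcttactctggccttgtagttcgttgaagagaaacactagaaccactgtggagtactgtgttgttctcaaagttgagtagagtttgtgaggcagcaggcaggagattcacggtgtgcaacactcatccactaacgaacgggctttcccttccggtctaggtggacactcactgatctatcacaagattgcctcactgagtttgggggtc
Tcf7: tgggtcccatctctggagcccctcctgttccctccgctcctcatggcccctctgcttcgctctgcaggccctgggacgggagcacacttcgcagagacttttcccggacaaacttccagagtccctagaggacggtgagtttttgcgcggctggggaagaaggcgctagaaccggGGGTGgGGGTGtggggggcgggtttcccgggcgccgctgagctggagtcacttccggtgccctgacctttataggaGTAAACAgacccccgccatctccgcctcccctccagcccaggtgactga
Klf2: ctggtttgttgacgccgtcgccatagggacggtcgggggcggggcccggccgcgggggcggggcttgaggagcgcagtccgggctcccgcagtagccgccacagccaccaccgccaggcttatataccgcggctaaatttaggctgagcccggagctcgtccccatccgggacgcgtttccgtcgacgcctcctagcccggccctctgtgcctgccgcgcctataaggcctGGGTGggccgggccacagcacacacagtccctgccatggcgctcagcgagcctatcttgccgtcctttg

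The TGTTTAC element stood in the Dapl1 window and in the shown Tcf7 window, which were 2 of the 18 windows, and 3.65% of all 32851 RefSeq windows of this length held it. CACCC stood in 13 of the 18 windows, from 5 of the 8 members, and in 57.5% of all windows. The elements CTTTGAT or CTTTGAA of TCF and LEF factors stood in 1 window, of Foxp1, against 8.65% of all windows. TGAGTCA, bound by AP-1 and BACH2, stood in 0 of the 18, against 5.20% of all windows. The Bach2 window held none of these letters, and it lies inside the gene, past the annotated gene start at 32238804. The shown Tcf7 window also lies inside its gene. The other Tcf7 window, at the annotated gene start at 52283014, held no TGTTTAC. No matches overlapped each other in the windows shown, though some windows of Lef1, of Satb1 and of Tcf7 lie close together or share bases. The matches are descriptions of sequence, and a window without a match says only that these letters are not in it.

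Per length of their annotated exons (CPM per kilobase), the order of the 9 genes differed between settings. Klf2 stood at 181 ± 17.0 CPM per kilobase in allogeneic KO, 187 ± 23.2 in allogeneic WT, 178 ± 70.9 in syngeneic KO and 176 ± 22.3 in syngeneic WT (SD, n = 3 each), the first rank in both allogeneic groups. Tcf7 held the first rank in both syngeneic groups, at 288 ± 61.1 and 273 ± 53.2 CPM per kilobase in syngeneic KO and WT, and the third in both allogeneic groups, at 67.6 ± 16.6 in KO and 74.9 ± 13.3 in WT. Dapl1 ranked 8 in both allogeneic groups (5.37 ± 1.81 CPM per kilobase in KO and 3.08 ± 0.392 in WT) and 3 in both syngeneic groups (124 ± 57.9 in KO and 106 ± 24.7 in WT). Bach2 was last in all 4 groups, from 0.924 to 9.27. In the order of groups by CPM, the ranges of KO and WT overlapped within each setting, except for Bach2 in the syngeneic and Satb1 and Dapl1 in the allogeneic setting. The ranges of the nearest allogeneic and syngeneic groups were apart for the 7 genes that fell, and all neighbours overlapped for Klf2 and S1pr1.

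EdgeR called none of the 9 genes between Wapl KO and WT T cells in either setting, while DESeq2 called Satb1 in the allogeneic setting. In syngeneic KO against syngeneic WT edgeR called 0 of the 9, where 3.37% of all genes were called, and DESeq2 also called 0. No member had an unadjusted p under 0.05 (0 of 9, where 14.0% of all genes did). Same-numbered syngeneic KO and WT libraries had positively correlated deviations. With the number as a block within these 2 groups 1287 genes were called in place of 622, and still 0 of the 9. The block was chosen from these same data, so the larger count is no evidence for the pairing. The members' median log2 fold change was −0.16, beside 0.06 for all tested genes. Tcf7 was at 0.08 ± 0.21 (95% interval −0.38 to 0.53, adjusted p = 0.896) and Klf2 at 0.02 ± 0.22 (−0.46 to 0.49, adjusted p = 0.979). The sign for Klf2 turned with the scaling (−0.0049 with DESeq2 size factors and −0.035 with upper quartile factors), with the filter and with the block. Bach2 was the member whose syngeneic groups did not overlap, with all 3 KO libraries below all 3 WT libraries, as for 10.1% of all genes lower in KO. Its log2 fold change was −0.35 ± 0.23 (95% interval −0.85 to 0.15, edgeR adjusted p = 0.518), and its adjusted p over the alternatives ran from 0.0577 to 0.841. Of the other 6, Lef1 (−0.20 ± 0.17), Satb1 (−0.17 ± 0.13), Foxo1 (−0.17 ± 0.16), S1pr1 (−0.16 ± 0.17) and Foxp1 (−0.08 ± 0.12) had values below 0 and Dapl1 (0.23 ± 0.30) above it, each with overlapping groups. Of the targets named above, Ccr7 (−0.22 ± 0.22) was not called, and Il7r was at −0.42 ± 0.20 (edgeR adjusted p = 0.362), called with the block (adjusted p = 0.0149).

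In allogeneic KO against allogeneic WT edgeR called 0 of the 9, where 0.0542% of all genes were called. An unadjusted p under 0.05 was found for 2 members and for 4.18% of all genes. DESeq2 called 1 member, and 75 of 23925 genes over the whole table. The members' median was −0.15, beside 0.03 over all genes. Satb1 was at 298, 248 and 277 CPM in allogeneic KO, against 388, 421 and 373 CPM in allogeneic WT, so all KO libraries lay below all WT libraries, as for 4.37% of all genes. Its log2 fold change was −0.52 ± 0.13 (95% interval −0.81 to −0.24, unadjusted p = 0.00168, edgeR adjusted p = 0.437), and DESeq2 called it (adjusted p = 0.0215). Over all alternatives its adjusted p ran from 0.0215 to 1. Dapl1 was higher in all 3 allogeneic KO libraries (3.26, 5.02 and 2.66 CPM) than in the allogeneic WT libraries (1.93, 1.95 and 2.40 CPM), as for 3.29% of all genes. Its log2 fold change was 0.80 ± 0.33 (95% interval 0.09 to 1.52, unadjusted p = 0.0311, edgeR adjusted p = 0.963), at levels far under those of either syngeneic group. Tcf7 (−0.15 ± 0.21), Lef1 (−0.19 ± 0.17), Bach2 (−0.21 ± 0.24), Foxp1 (−0.20 ± 0.12), S1pr1 (−0.06 ± 0.17), Klf2 (−0.05 ± 0.22) and Foxo1 (0.02 ± 0.16, below 0 with upper quartile scaling) overlapped between the groups. Ccr7 was at −0.62 ± 0.23 (95% interval −1.12 to −0.13, unadjusted p = 0.0171, edgeR adjusted p = 0.963), with all KO libraries below all WT libraries. Il7r was at −0.56 ± 0.20 (95% interval −0.99 to −0.14, unadjusted p = 0.013, edgeR adjusted p = 0.963), with overlapping groups.

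**Figure D3:**
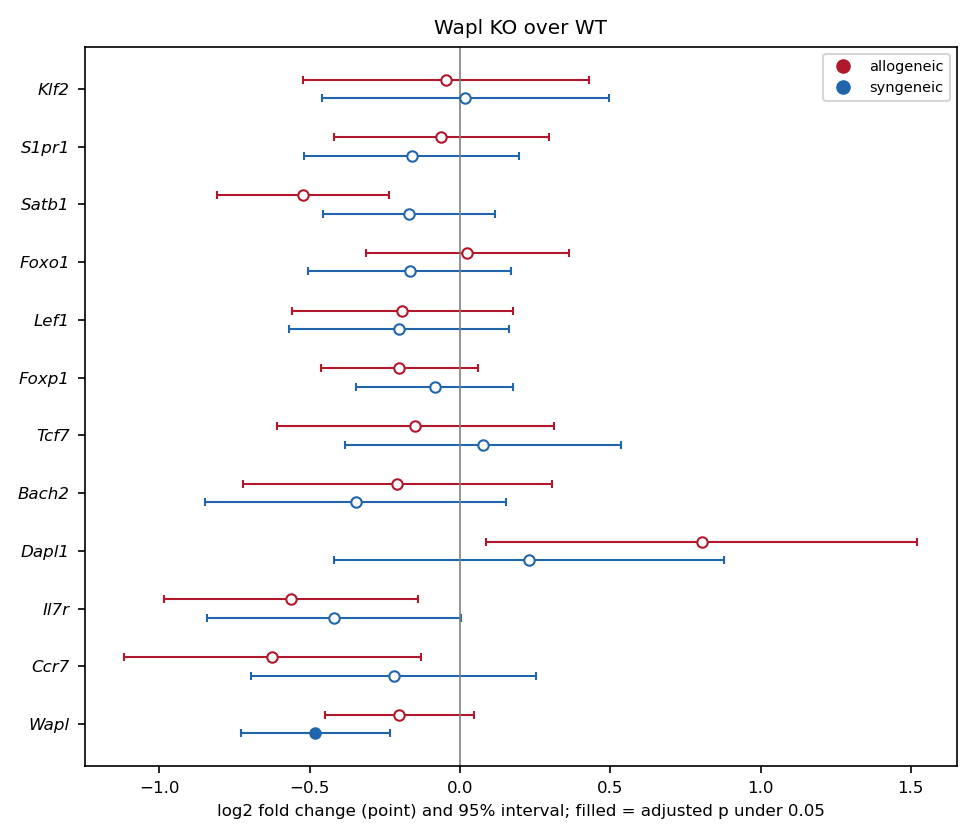
Log2 fold change of Wapl KO over WT libraries (horizontal axis, points) with 95% intervals (bars) for the 9 genes, Il7r, Ccr7 and Wapl, allogeneic above syngeneic for each gene. All points are open (edgeR adjusted p of 0.05 or more) except Wapl in the syngeneic setting at −0.48, and in the allogeneic setting the intervals of Satb1, Ccr7 and Il7r lie below 0 and that of Dapl1 above it.

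Whether the response to allogeneic transplantation differed with genotype was tested by the interaction, the change in KO minus the change in WT. EdgeR called 0 of the 9 members, where 0.477% of all genes were called, and DESeq2 called 0 as well. The unadjusted p was under 0.05 for 0 members and 6.20% of all genes. Satb1 was at −0.35 ± 0.19 (95% interval −0.76 to 0.05, edgeR adjusted p = 0.936) and Dapl1 at 0.57 ± 0.44 (−0.39 to 1.54, adjusted p = 1). Lef1, at 0.01 ± 0.24 (−0.51 to 0.53), lay nearest to 0 and changed sign without a filter on low counts. Tcf7 was at −0.22 ± 0.30 (−0.87 to 0.43), Bach2 at 0.14 ± 0.33 (−0.58 to 0.86) and Foxo1 at 0.19 ± 0.22 (−0.29 to 0.67). The comparisons of the 2 settings and of the 2 genotypes share libraries, so their values stand side by side only.

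Genes that work with the members were taken from 5 further lists, 77 genes in all, and named by the smallest p among those whose call held under every alternative. The counts of these lists stand beside 13.2% of all genes called higher and 11.2% lower in allogeneic KO against syngeneic KO, and 16.4% higher and 15.9% lower in allogeneic WT against syngeneic WT. These shares do not take the alternatives into account. The share of all genes whose calls held under every alternative was not computed. In the list of lymph node homing and egress, with 15 genes, 4 rose and 3 fell in allogeneic KO, of which 1 and 2 calls held under the 21 alternatives. In allogeneic WT 4 rose and 3 fell, and all 7 calls held. S1pr4, another receptor for sphingosine 1-phosphate, rose to 284 ± 42.0 CPM in allogeneic KO, against 141 ± 23.6 in syngeneic KO (SD, n = 3; log2 fold change 1.01 ± 0.17, edgeR adjusted p = 0.000893). It rose in WT as well (1.27 ± 0.17, edgeR adjusted p = 0.000119), and S1pr1 was not called in either. Itgal, the alpha chain of the integrin LFA-1, rose in WT (0.79 ± 0.14, edgeR adjusted p = 0.000819), as did Gnai2, a G protein subunit that signals from chemokine and S1P receptors (0.75 ± 0.15, adjusted p = 0.00186), and Cxcr4, a chemokine receptor, fell (−0.56 ± 0.12, adjusted p = 0.00401). The list median was 0.22 in KO and −0.18 in WT.

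In the list of FOXO factors and the PI3K pathway, with 14 genes, 2 rose and 3 fell in each comparison of settings, and no call in KO and 1 rise and 1 fall in WT held under every alternative. Akt1, a kinase that moves FOXO proteins out of the nucleus, rose to 295 ± 18.6 CPM in allogeneic WT, against 173 ± 22.6 in syngeneic WT (0.77 ± 0.13, edgeR adjusted p = 0.000741). Foxo3, a relative of Foxo1, fell to 75.1 ± 4.97 CPM in allogeneic WT, against 197 ± 36.4 in syngeneic WT (−1.39 ± 0.15, edgeR adjusted p = 1.65e-05). In syngeneic KO against syngeneic WT 2 of the 14 fell, Foxo3 and Foxo4, where 3.37% of all genes were called in either direction. Of these 2 calls that of Foxo3 held under every alternative. Foxo4 was at −0.49 ± 0.12 (edgeR adjusted p = 0.0417), and its call was lost without any 1 of 7 libraries, among them all 3 of syngeneic WT and syngeneic KO replicates 2 and 3, and under 2 other alternatives (adjusted p from 0.0534 to 0.184). Foxo3 stood at 93.9 ± 2.13 CPM in syngeneic KO, against 197 ± 36.4 in syngeneic WT (−1.07 ± 0.15, edgeR adjusted p = 0.00149), and Foxo1 in the same libraries was at −0.17 ± 0.16. Erythroid markers moved the same way, at 70.0 to 164 CPM in syngeneic KO and 2239 to 5151 in syngeneic WT, as did 5 myeloid markers, and their part in the fall of Foxo3 was not tested. The list median was −0.05 in allogeneic KO against syngeneic KO, −0.19 in allogeneic WT against syngeneic WT and −0.22 in syngeneic KO against syngeneic WT.

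In the list of quiescence and naive identity, with 21 genes, 1 rose and 10 fell in allogeneic KO, of which 7 falls held under every alternative. In allogeneic WT 3 rose and 9 fell, and 8 of the falls and none of the rises held. Igfbp4, a binding protein for insulin-like growth factors that marks naive cells, fell to 9.78 ± 4.75 CPM in allogeneic KO, against 265 ± 124 in syngeneic KO (−4.75 ± 0.45, edgeR adjusted p = 2.30e-05), and by a like amount in WT (−4.55 ± 0.44, adjusted p = 2.09e-05). Nsg2 fell in KO (−3.50 ± 0.24, edgeR adjusted p = 9.15e-07) and in WT (−3.15 ± 0.24, adjusted p = 1.24e-06). Bcl2, which protects resting cells from death, fell in KO (−1.03 ± 0.13, edgeR adjusted p = 7.39e-05), and Zeb1, a zinc finger repressor, fell in WT (−0.96 ± 0.12, adjusted p = 6.53e-05). Both genes were called lower under every alternative in KO and in WT. The list median was −0.59 in KO and −0.42 in WT.

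In the list of TCF and LEF partners and relatives, with 11 genes, 0 rose and 3 fell in allogeneic KO, of which 2 falls held under every alternative, and 2 rose and 5 fell in allogeneic WT, of which 1 fall held. Bcl9, which links beta-catenin to transcription, fell to 8.76 ± 3.25 CPM in allogeneic KO, against 27.0 ± 3.37 in syngeneic KO (−1.63 ± 0.22, edgeR adjusted p = 0.000159), and in WT it fell by 1.14 ± 0.22 (adjusted p = 0.00154). The list median was −0.22 in KO and −0.28 in WT.

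The list of BACH2 partners, AP-1 competitors and effector factors, with 16 genes, held changes in both directions. In allogeneic KO 6 rose and 3 fell, of which 5 and 1 calls held under every alternative, and in allogeneic WT 6 rose and 5 fell, of which 6 and 3 held. Prdm1, which encodes Blimp-1, a repressor that promotes effector fate and whose gene is a known target of BACH2, rose to 70.6 ± 11.8 CPM in allogeneic KO, against 19.4 ± 3.79 in syngeneic KO (1.87 ± 0.18, edgeR adjusted p = 8.93e-06), and in WT it rose by 2.82 ± 0.18 (adjusted p = 3.29e-07). Id2, an inhibitor of E proteins, rose by 2.09 ± 0.13 in KO (edgeR adjusted p = 3.71e-07) and 2.57 ± 0.14 in WT (adjusted p = 6.17e-08). Bhlhe40, a basic helix-loop-helix factor of activated cells, rose by 2.13 ± 0.15 in KO (edgeR adjusted p = 9.48e-07) and 2.68 ± 0.16 in WT (adjusted p = 1.42e-07). Eomes, a T-box factor of memory and cytotoxic cells, fell in KO (−1.14 ± 0.16, edgeR adjusted p = 0.0002) and in WT (−1.26 ± 0.16, adjusted p = 6.72e-05). Mafk, a small Maf partner of BACH proteins, fell in WT (−0.98 ± 0.10, edgeR adjusted p = 1.59e-05). The list median was 0.04 in KO and −0.34 in WT.

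**Figure D4:**
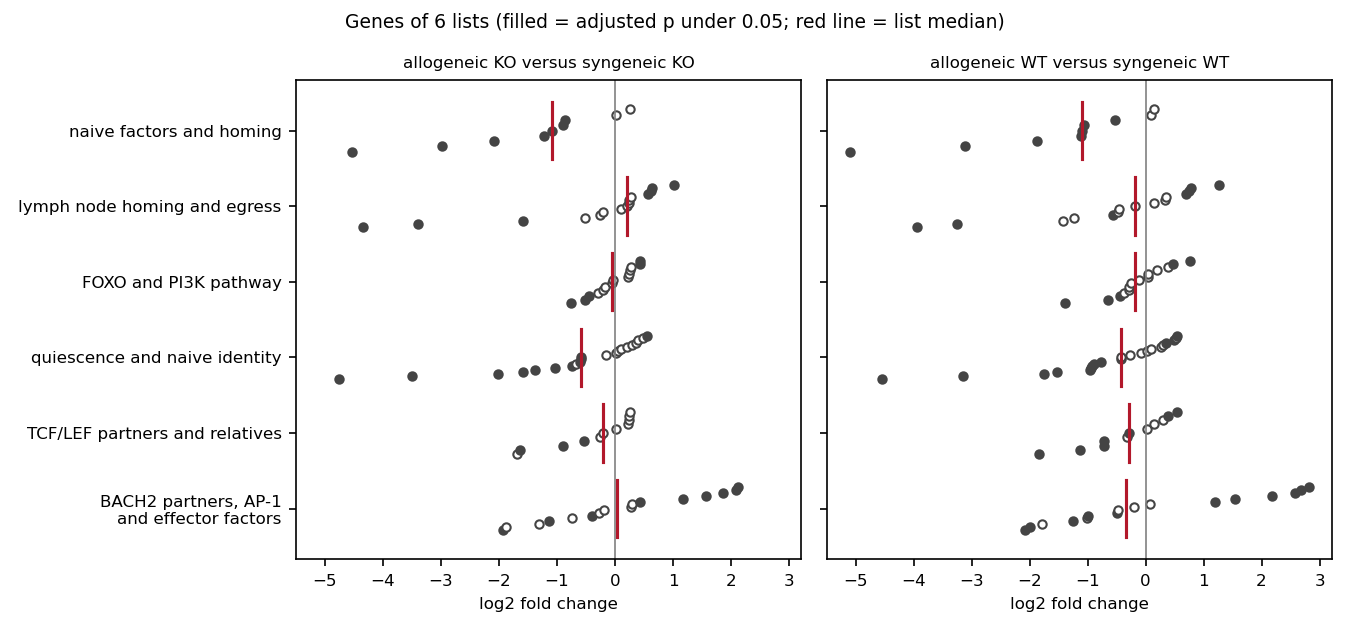
Log2 fold change of allogeneic over syngeneic libraries (horizontal axes) in KO (left) and WT (right) for the genes of 6 lists, 1 point per gene. Filled points had an edgeR adjusted p under 0.05 and red bars are list medians, which stand at −1.08 in KO and −1.09 in WT for the 9 naive factors and homing genes.

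In syngeneic KO against syngeneic WT 2 genes of the list with BACH2 partners rose and 1 fell, and all 3 calls held under every alternative. Prdm1 stood at 19.4 ± 3.79 CPM in syngeneic KO, against 9.49 ± 1.52 in syngeneic WT (1.03 ± 0.17, edgeR adjusted p = 0.00536). Irf4, a factor induced by receptor signalling, stood at 50.6 ± 5.42 CPM in syngeneic KO, against 29.8 ± 0.987 in syngeneic WT (0.76 ± 0.12, edgeR adjusted p = 0.00299). Mafk stood at 40.9 ± 3.75 CPM in syngeneic KO, against 69.1 ± 4.55 in syngeneic WT (−0.76 ± 0.10, edgeR adjusted p = 0.00144). Erythroid markers moved the same way as Mafk, at 70.0 to 164 CPM in syngeneic KO and 2239 to 5151 in syngeneic WT. Their part in these 3 changes was not tested. Over all 5 lists edgeR called 5 of 77 genes in this comparison (3.37% of all genes), and 19 had an unadjusted p under 0.05 (14.0% of all genes). DESeq2 called 7 of the 77 in it, and 1020 of 21115 genes over the whole table. In allogeneic KO against allogeneic WT edgeR and DESeq2 each called 0 of the 77 and 8 had an unadjusted p under 0.05 (4.18% of all genes). In the interaction edgeR called 0 of the 77 (0.477% of all genes) and 10 had an unadjusted p under 0.05 (6.20% of all genes). DESeq2 called 5 of the 77 there (Mafk, Irf4, Prdm1, Cxcr4 and Foxo3), and 294 of 19991 genes over the whole table.

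As a measure of likeness, the log2 CPM of each gene was centred on its mean over the 12 libraries, and the root mean square difference between 2 genes was taken. Of the 36 pairs Lef1 and Foxp1 (0.131), Klf2 and S1pr1 (0.132) and Lef1 and Foxo1 (0.137) were closest, and S1pr1 and Dapl1 (2.52) were farthest apart. Over 10052 genes with a mean of at least 5 CPM, the genes most like Tcf7 were Lta, Smad1 and Fgf13 (distances 0.193 to 0.221). Those most like Bach2 were Cacna2d4, Adgrg5 and Tbc1d16 (0.225 to 0.237). For Dapl1 they were Drc1, Slc6a19 and Trim30c (0.368 to 0.471), and for Satb1 they included Ssh2 and Fam78a (0.116 and 0.137). For Lef1 they were Ppp1r13b, Smad7 and Gm17334, for Foxo1 Ets2, Zeb1 and Phf21a, and for Foxp1 Phf21a, Dyrk2 and Trub1. For Klf2 they were Tob1, Ier2 and Add3, and for S1pr1 Ttc38, Ccpg1 and 4632428N05Rik. The points of this measure share libraries, and it is given as a description.

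Within groups the members deviated the same way in some libraries. In syngeneic KO replicate 1 the members lay on average 0.29 above their group mean on the log2 scale, with 8 of 9 above it, and in syngeneic WT replicate 1 they lay 0.23 above, with 9 of 9 above. In syngeneic KO replicate 3 and syngeneic WT replicate 3 they lay 0.20 and 0.14 below, with 0 of 9 above in each. Among the allogeneic libraries WT replicate 1 had 0 of 9 above its group mean (0.14 below on average), and the other 5 had 3 to 7. The exons of Lef1 share 1208 bases with Gm43352, those of Bach2 537 with Bach2os, those of Foxo1 674 with Gm20402 and those of Satb1 128 with Gm6934, all on the opposite strand (GENCODE M21). On the same strand those of Satb1 share 156 bases with Gm36931 and those of Foxp1 300 with Gm20696 and 135 with Gm49348. Whether counting used strand is not given in the sources used here, so reads in these bases cannot be assigned to one gene.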

How the data were processed

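RNA of 12 libraries in 4 groups of 3 was used, of 18 samples in the labels; the 6 naive samples were not analysed here, nor were 6 table columns that match no sample used here. The deposited values are expected counts per gene made by the authors, of which 94.5% to 95.0% are whole numbers, and they were rounded before testing. The submitters' processing notes name build GRCm38 and, with no roles, Cuffdiff 2.2.1, Cufflinks, TopHat2 2.0.13 and Bowtie2 2.2.1. Positions come from GENCODE M21, which held 45225 of the 46073 identifiers.

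Genes were tested with edgeR 4.0.16 (R 4.3.3, limma 3.58.1) by the quasi-likelihood F test with TMM scaling, a count filter with a minimum of 10, robust dispersion and 1 mean per group over all 12 libraries, with Benjamini-Hochberg adjustment over the 18447 genes tested. The threshold was an adjusted p under 0.05. The residual degrees of freedom were 8 and the common biological coefficient of variation was 0.2486. DESeq2 1.42.0 was an alternative, as were other scalings, filters, blocks and each library left out in turn. The p-values measure the spread between pools of 2 to 4 mice.

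The named genes are the 9 members, Wapl, Ccr7 and Il7r, up to 3 called genes per direction and list with the smallest p, and the 3 genes most like each member; of the list genes, those whose call held in every alternative are given with values, and Foxo4, a condition added after the values were seen. The members and lists were chosen with earlier results of these data known. Same-numbered syngeneic KO and WT libraries had correlated deviations (r = 0.545, 0.170 and 0.335), so their numbers were taken to pair them, from the data and not from the labels. The pairing was not clear for every library. Syngeneic KO replicate 3 had r = 0.363 with syngeneic WT replicate 2, and syngeneic KO replicate 2 had r = 0.114 with syngeneic WT replicate 3. Other group pairs did not pass the check of same-numbered libraries. Some genes that this rule names are not reported here.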

Additional observations from a re-analysis of the deposited data

How the results depend on the processing

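The 7 falls of members in each comparison of settings held in all 21 alternatives, and 0 members were called in syngeneic KO against syngeneic WT and in the interaction in every alternative. DESeq2 called 1 member, Satb1, in allogeneic KO against allogeneic WT, where edgeR called 0. Leaving out 1 library at a time gave 7 to 9 members in allogeneic KO against syngeneic KO, 7 in the WT comparison and 0 elsewhere. Genes called over the whole table moved more. In allogeneic KO against syngeneic KO they were 2669 with only the 2 groups fitted and 2266 with a replicate block within them, against 4500. In syngeneic KO against syngeneic WT they were 349 with only the 2 groups, 1287 with the replicate block within them and 1020 with DESeq2, against 622. In allogeneic KO against allogeneic WT they were 6 with only the 2 groups and 75 with DESeq2, against 10, and in the interaction 52 with a stricter filter and 294 with DESeq2, against 88. With 1 library left out at a time the counts ran from 4110 to 6899 (allogeneic WT against syngeneic WT, 5955 with all), from 3062 to 5397 (allogeneic KO against syngeneic KO), from 260 to 742 (syngeneic KO against syngeneic WT), from 3 to 15 (allogeneic KO against allogeneic WT) and from 28 to 242 (interaction). The count in syngeneic KO against syngeneic WT was 410 and 266 without syngeneic KO replicates 1 and 2 and 260 and 280 without syngeneic WT replicates 2 and 3, that in allogeneic KO against allogeneic WT was 3 without any 1 allogeneic WT library, and that in the interaction was 242 without syngeneic WT replicate 1 and 28 to 41 without any other library but allogeneic WT replicate 1 and syngeneic KO replicate 3. The replicate block over all 12 libraries gave 6098, 4630, 626, 11 and 64 genes in the 5 comparisons, with the members' calls as before, and it and the block within 2 groups changed no other member's call. With the block within the 2 groups Il7r was called in allogeneic WT against syngeneic WT (adjusted p = 0.0342), although the numbers were not found to pair those libraries. The syngeneic call of Wapal was lost with the block over 12 libraries, upper quartile factors, no filter and only the 2 groups (adjusted p = 0.0602, 0.0778, 0.0515 and 0.0656). Values near 0 changed sign. With upper quartile factors Klf2 was at −0.064 in allogeneic KO against syngeneic KO and −0.015 in the WT comparison. In syngeneic KO against syngeneic WT Klf2 was at −0.0049 with DESeq2 size factors, −0.035 with upper quartile factors, −0.048 with a stricter filter, −0.0087 with the replicate block over 12 libraries, −0.027 without ribosomal RNA genes, −0.026 with only the 2 groups, −0.084 with the replicate block within them and −0.0031 with DESeq2. Lef1 was at −0.0055 in the interaction with no filter, and Foxo1 at −0.0030 in allogeneic KO against allogeneic WT with upper quartile factors. With 1 library left out, the values of Klf2 ran from −0.14 to 0.44 in allogeneic KO against syngeneic KO, from −0.0071 to 0.20 in the WT comparison, from −0.39 to 0.19 in syngeneic KO against WT, from −0.13 to 0.037 in allogeneic KO against WT and from −0.23 to 0.33 in the interaction. In syngeneic KO against WT Tcf7 ran from −0.14 to 0.25 and Dapl1 from −0.25 to 0.44. In allogeneic KO against WT Bach2 ran from −0.49 to 0.0088, S1pr1 from −0.13 to 0.020 and Foxo1 from −0.059 to 0.16. In the interaction Lef1 ran from −0.13 to 0.21, Bach2 from −0.15 to 0.39, S1pr1 from −0.039 to 0.32 and Foxp1 from −0.21 to 0.019. The cause of these changes was not tested.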
